A study of Mus musculus with 6 samples.

Results

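A set of 9 genes was followed here. Fsd1l, Fbxw4, Acp6, Resp18, Rcan2, Nap1l2, Tmcc1, Prr3 and Gm16136 were chosen by their FPKM values in this same comparison, as genes in which all 3 mutant samples lay on one side of all 3 control samples and which the study's text does not discuss. They are 9 of the 38553 genes in the expression table and 9 of the 10061 genes that had an FPKM over 5 in every control or in every mutant sample. FPKM is the number of sequenced fragments per kilobase of gene, scaled to the mapped fragments of the sample. Of the 9, 8 passed this filter in both groups, and Gm16136 passed through the controls alone, where it is the higher.

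The samples are craniofacial tissue microdissected from mouse embryos at E12.5, profiled by RNA-Seq of poly(A)+ RNA, with 3 independent samples of each genotype. The labels give the genotype of all 3 controls as Rbfox2 flox/flox, with no Cre named, although the study's methods allow other control genotypes across its experiments. By the labels, *Rbfox2* mutants were Pax3Cre/+ with the same Rbfox2 flox/flox alleles, on a mixed genetic background, so that the floxed alleles were shared by all 6 samples and the Cre was carried by the mutants alone. Pax3Cre is a knock-in into *Pax3*, a transcription factor gene of premigratory neural crest, dorsal neural tube and somites. It deletes floxed alleles in those lineages, and cells of other lineages in the dissected tissue would keep *Rbfox2*. In such bulk tissue, fewer cells of a type and less RNA per cell cannot be told apart.

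Rbfox2 is an RNA-binding protein that recognizes the sequence UGCAUG in transcripts, mainly in introns beside alternative exons, where it promotes or represses exon inclusion. It also binds 3' untranslated regions and can alter the abundance of transcripts. In the embryonic face, neural crest cells give rise to bone, cartilage, connective tissue and the neurons and glia of the cranial ganglia. The 9 genes have no common pathway. *Resp18*, *Nap1l2* and *Rcan2* are known mainly from neurons and endocrine cells, *Fsd1l*, *Tmcc1* and *Fbxw4* encode proteins of the cytoskeleton, the endoplasmic reticulum and the ubiquitin system, *Acp6* encodes a lipid phosphatase, *Prr3* encodes a zinc finger protein, and *Gm16136* is an antisense transcript.

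*Rbfox2* itself was at 58.4, 65.0 and 61.3 FPKM in control replicates 1 to 3 and at 38.1, 36.3 and 34.3 FPKM in mutant replicates 1 to 3. The mutant mean of 36.2 ± 1.87 (SD, n = 3) was 58.8% of the control mean of 61.6 ± 3.29, and the groups did not overlap. The change of -0.75 (SE 0.079) in log2(FPKM + 1) had an adjusted p of 0.138 in limma, fitted over all tested genes. No gene passed an adjusted p of 0.05 in this limma fit, and 167 genes (1.66%) had an unadjusted p under 0.05. With 3 samples against 3, an exact permutation test cannot give a p below 0.1. The deposited FPKM sums ran from 528123 to 590174 per sample, and FPKM does not keep the number of reads behind each value. On the first principal component, with 54.7% of the variance, replicate 1 of either genotype lay far from replicates 2 and 3, so differences are also given within each replicate number. Y-linked genes averaged 14.4 and 13.9 FPKM in mutant replicates 1 and 2 and no more than 0.0541 FPKM in the other 4 samples. *Xist* was at 0.383 and 0.330 FPKM in those mutants and at 52.7 FPKM or more in the other 4 samples. By these values mutant replicates 1 and 2 were male and the other 4 samples female. Sex is thus partly confounded with genotype for every gene and count here, and its part was not tested.

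All 9 genes had groups that did not overlap, because they were selected for it. Among the 10061 tested genes the groups did not overlap in 503 (5.0%), with the mutants higher in 265 (2.63%) and lower in 238 (2.37%), and nothing is read from the members' count. Of the 9, 7 were higher in mutants, at 125% to 164% of the control mean, and *Acp6* and *Gm16136* were lower. The median size of the log2 change was 0.51 over the 9 genes, 0.054 over all tested genes and 0.15 over the 503 genes. No p-value is given for the 9 genes, since the values that chose them are the values that a test would use. The narrowest gap among the 9 was that of *Tmcc1*, with 0.18 between the highest control and the lowest mutant in log2(FPKM + 1). Of the 503 genes, 22 had a wider gap than *Tmcc1*, so the 9 have wide gaps and are not the full set with groups apart. Just outside the rule stood *Stx5a*, whose highest mutant met its lowest control at 48.7 FPKM, a gap of -0.00021 on that scale, and *Aco1*, with a gap of -0.00030. Genes that were not chosen could have wider gaps, among them *Fkbp7*, *Fkbp14*, *Oc90*, *Rbfox2* and *Xist*.

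**Figure D1:**
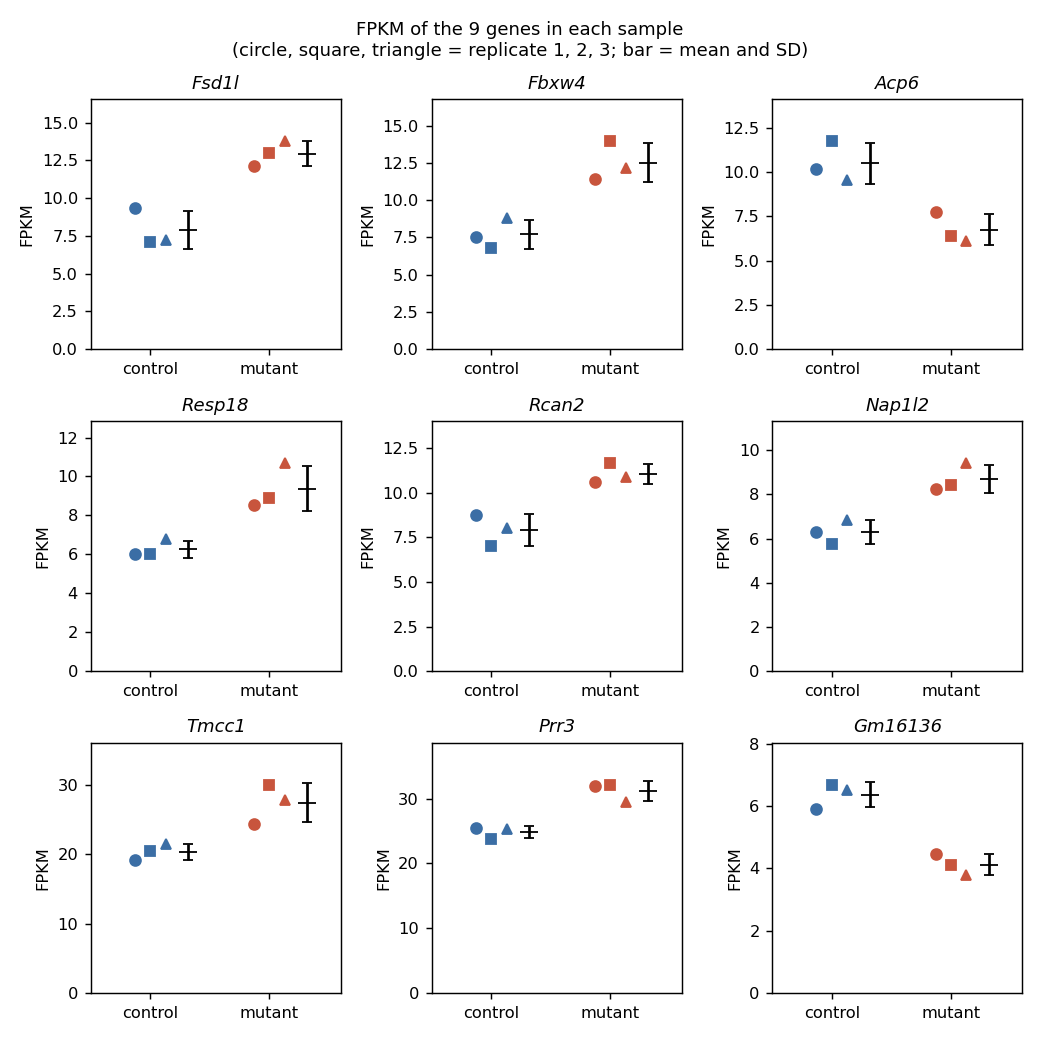
FPKM (vertical axes, from 0) of the 9 genes in the 3 control (blue) and 3 mutant (red) samples, with symbols for replicates 1 to 3 and black bars for the mean and SD of each group. In every panel the groups are apart, with mutant replicate 1 the nearest to the controls in 6 of the 7 genes that are higher in mutants and in both that are lower.

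UGCAUG, written TGCATG in DNA, was searched on the sense strand of 1 transcript per gene, the longest coding transcript in GENCODE release 21 for GRCm38 or the longest transcript where none was coding. It was present in 6 of the 9 genes, at 11 sites in 27501 bases, and in 55.1% of the 10005 tested genes with such a transcript. The density was 0.400 sites per kilobase in the 9 transcripts and 0.281 sites per kilobase over all tested genes. Of the 11 sites, 5 lay in coding sequence, 4 in 3' untranslated regions and 2 in 5' untranslated regions, and introns were not analysed here. *Resp18*, *Prr3* and *Gm16136* had no match in the transcript searched. The first site of each of the 6 genes is shown because this is the element that the deleted protein binds, in capitals, with 12 bases on each side:
Fsd1l: tgtgtgcacatgTGCATGcgcatacacaca
Fbxw4: agcgggcttgccTGCATGccttctcattga
Acp6: cctgactgagccTGCATGcagtaggggcgg
Rcan2: cgagcgtcgtggTGCATGtgtgtgacagcg
Nap1l2: aagacggtatggTGCATGaatacgtggatg
Tmcc1: ccatctctcagcTGCATGcattgtcactct
The *Fsd1l* site is in the 3' untranslated region in exon 13 of 13 (chr4:53704937-53704966, plus strand). The *Fbxw4* site is at the end of exon 8 of 9 in coding sequence, with the window crossing a splice junction (chr19:45578913-45579137, minus strand). The *Acp6* site is in the 5' untranslated region in exon 1 of 10 (chr3:97158933-97158962, plus strand). The *Rcan2* site is in coding sequence in exon 4 of 4 (chr17:44037012-44037041, plus strand). The *Nap1l2* site is in coding sequence of its single exon (chrX:103185713-103185742, minus strand). The *Tmcc1* site is in the 5' untranslated region in exon 3 of 6 (chr6:116134413-116134442, minus strand). A match is a run of letters and not a measured binding site.

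*Resp18* (ENSMUSG00000033061, chr1:75272199-75278415, minus strand) encodes regulated endocrine-specific protein 18, a luminal protein of the dense-core secretory granules of neuroendocrine cells. It was at 5.99, 6.01 and 6.77 FPKM in controls and at 8.52, 8.91 and 10.7 FPKM in mutants. Mutant replicate 3 was the highest and every mutant was above every control. The means were 6.26 ± 0.445 and 9.37 ± 1.16 FPKM (SD, n = 3), a log2 change of 0.51 (SE 0.10). Within replicates 1, 2 and 3 the difference was 0.45, 0.50 and 0.59 in log2(FPKM + 1).

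*Nap1l2* (ENSMUSG00000082229, chrX:103184176-103186640, minus strand) is an X-linked gene of a single exon for a nucleosome assembly protein found mainly in neurons. Its values were 6.31, 5.73 and 6.86 FPKM in controls and 8.24, 8.45 and 9.42 FPKM in mutants. The third replicate was the highest of each group. The means were 6.30 ± 0.562 and 8.70 ± 0.632 FPKM, a log2 change of 0.41 (SE 0.094). Because the gene is X-linked, its level was set beside the Y-linked genes: the mutant sample without Y-linked expression, replicate 3, held the highest value. With the Y-linked level as a covariate the log2 change was 0.52.

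*Rcan2* (ENSMUSG00000039601, chr17:43801351-44039516, plus strand) encodes a regulator of calcineurin, the calcium-dependent phosphatase that activates NFAT transcription factors. Its values were 8.78, 7.01 and 8.01 FPKM in controls and 10.6, 11.7 and 10.9 FPKM in mutants. The mutants lay close together, and the highest control was replicate 1. The means were 7.93 ± 0.889 and 11.1 ± 0.552 FPKM, a log2 change of 0.44 (SE 0.097). The difference was 0.25 in replicate 1, 0.66 in replicate 2 and 0.40 in replicate 3.

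*Fsd1l* (ENSMUSG00000054752, chr4:53631471-53707009, plus strand) encodes a coiled-coil protein with fibronectin type III and SPRY domains, a relative of the microtubule-associated protein Fsd1. It had 9.34, 7.08 and 7.22 FPKM in controls and 12.1, 13.0 and 13.8 FPKM in mutants. The first replicates came nearest to each other, since control replicate 1 was the highest control and mutant replicate 1 the lowest mutant. The means were 7.88 ± 1.27 and 13.0 ± 0.837 FPKM, which is 164% of control and a log2 change of 0.66 (SE 0.12), the largest of the 9. It was 0.34 in replicate 1 against 0.79 and 0.85 in replicates 2 and 3.

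*Tmcc1* (ENSMUSG00000030126, chr6:116018611-116193486, minus strand) encodes a transmembrane coiled-coil protein of the endoplasmic reticulum that takes part in contacts with endosomes. It had 19.2, 20.4 and 21.4 FPKM in controls and 24.4, 30.0 and 27.9 FPKM in mutants. Mutant replicate 1 was the lowest mutant, above the highest control by 0.18 in log2(FPKM + 1). The means were 20.4 ± 1.12 and 27.4 ± 2.82 FPKM, a log2 change of 0.41 (SE 0.096).

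*Fbxw4* (ENSMUSG00000040913, chr19:45578254-45660312, minus strand) encodes an F-box and WD40 repeat protein, the kind of subunit that brings substrates to SCF ubiquitin ligases, and the locus is known from limb malformations in mouse and human. It had 7.52, 6.82 and 8.77 FPKM in controls and 11.4, 14.0 and 12.2 FPKM in mutants. Mutant replicate 2 was the highest, and the gap of 0.35 between the groups was the widest of the 9. The means were 7.71 ± 0.989 and 12.52 ± 1.30 FPKM, a log2 change of 0.64 (SE 0.11). Its 3' end overlaps *Dpcd* on the other strand, which was at 14.2 ± 1.31 FPKM in controls and 14.4 ± 1.55 FPKM in mutants.

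*Prr3* (ENSMUSG00000038500, chr17:35972541-35980236, minus strand) encodes a proline-rich protein with a CCCH zinc finger. It was at 25.5, 23.7 and 25.3 FPKM in controls and at 32.0, 32.1 and 29.4 FPKM in mutants. Here mutant replicate 3, not 1, was nearest the controls. The means were 24.9 ± 0.983 and 31.2 ± 1.53 FPKM, and its log2 change of 0.32 (SE 0.075) was the smallest of the 9. It overlaps *Gnl1* on the other strand, with 38.3 ± 1.40 FPKM in controls and 39.0 ± 2.05 FPKM in mutants.

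*Acp6* (ENSMUSG00000028093, chr3:97158777-97177299, plus strand) encodes a mitochondrial phosphatase that removes phosphate from lysophosphatidic acid. It was at 10.2, 11.7 and 9.52 FPKM in controls and at 7.75, 6.39 and 6.11 FPKM in mutants. Every mutant was below every control, with mutant replicate 1 the highest of the mutants. The means were 10.5 ± 1.14 and 6.75 ± 0.876 FPKM, which is 64.4% of control and a log2 change of -0.57 (SE 0.12). The annotation gives it 9 transcripts, of which 8 retain an intron.

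*Gm16136* (ENSMUSG00000089804, chr15:37231793-37233309, minus strand) is annotated as an antisense RNA. It was at 5.90, 6.68 and 6.53 FPKM in controls and at 4.47, 4.10 and 3.79 FPKM in mutants. The mutants were all below 5 FPKM and the controls all above it. The means were 6.37 ± 0.415 and 4.12 ± 0.337 FPKM, which is 64.6% of control and a log2 change of -0.53 (SE 0.091). Its 5' end overlaps the start of *Grhl2*, on the other strand, which was untested at 3.75 ± 1.15 FPKM in controls and 3.31 ± 0.101 FPKM in mutants. The libraries were stranded, but the sources used here do not say whether counting used the strand, so reads of *Gm16136*, *Fbxw4* and *Prr3* may not be fully separated from those of the genes that they overlap.

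**Figure D2:**
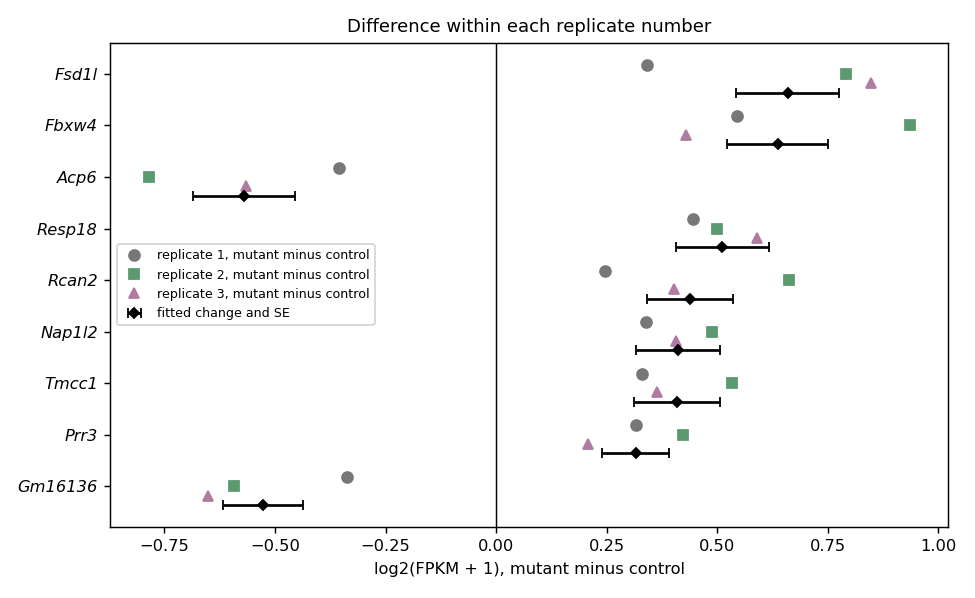
Difference between mutant and control with the same replicate number, in log2(FPKM + 1), for each of the 9 genes, with the fitted change and its SE as black diamonds. All 3 differences have the same sign in 9 of 9 genes, which was fixed in advance by choosing genes with groups apart. The difference in replicate 1 is as small as 0.25 in *Rcan2*, while that in replicate 2 reaches 0.94 in *Fbxw4*.

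The summed FPKM of 12 neuron markers was 868 to 931 in controls and 1001 to 1106 in mutants, without overlap, and the mutant mean was 117% of the control mean. None of the 12 was at 0 in all samples. The groups were apart in 5 of the 12, all higher in mutants, against 2.63% of all tested genes in that direction. They overlapped in the others, among them *Syt1* with a log2 change of 0.0045, *Nefm* with -0.064 and *Isl1* with 0.057. Their median log2 change was 0.17, and 4 of 12 (*Tubb3*, *Map2*, *Dcx* and *Elavl3*) had an unadjusted limma p under 0.05, all higher and with an adjusted p of 1, against 0.706% of all tested genes. *Tubb3*, the neuronal tubulin, was at 360 ± 35.3 FPKM in controls and 455 ± 48.8 FPKM in mutants. The markers of cranial mesenchyme had a median log2 change of -0.069 and summed to 488 to 545 FPKM in controls and 440 to 537 FPKM in mutants, and the sums overlapped. The sums of each other marker list overlapped as well, although some were shifted. Choroid plexus markers summed to 30.6 to 97.6 FPKM in controls and to 58.6 to 109 FPKM in mutants. All 3 tested genes of that list were above 0, with a median log2 change of 0.077. Epithelium markers summed to 135 to 245 FPKM in controls and to 137 to 194 FPKM in mutants. Of the 8 tested, 7 were below 0 and 1 above, with a median of -0.19. Skeletal muscle markers summed to 138, 338 and 214 FPKM in controls and to 131, 194 and 153 FPKM in mutants, with all 5 tested genes below 0 and a median log2 change of -0.43. Erythroid markers summed to 4725 to 9285 FPKM in controls and to 6528 to 9763 FPKM in mutants, with all 6 tested genes above 0 and a median of 0.41. The values were also divided by the neuron marker sum of the same sample, a scaling added after they were seen. With it, the median log2 change of all tested genes was -0.21. Groups were then apart in 8 of the 9 genes and not in *Prr3*, but the 9 had been chosen with groups apart. The share of all tested genes with groups apart on that scale is not given, so nothing is read from this count. On that scale *Resp18* had a log2 change of 0.31, *Nap1l2* of 0.21, *Rcan2* of 0.23, *Fsd1l* of 0.45, *Tmcc1* of 0.19, *Fbxw4* of 0.43 and *Prr3* of 0.096, while *Acp6* at -0.77 and *Gm16136* at -0.72 were farther from 0 than without it. The part of these cell type markers in the changes of these genes was not tested.

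**Figure D3:**
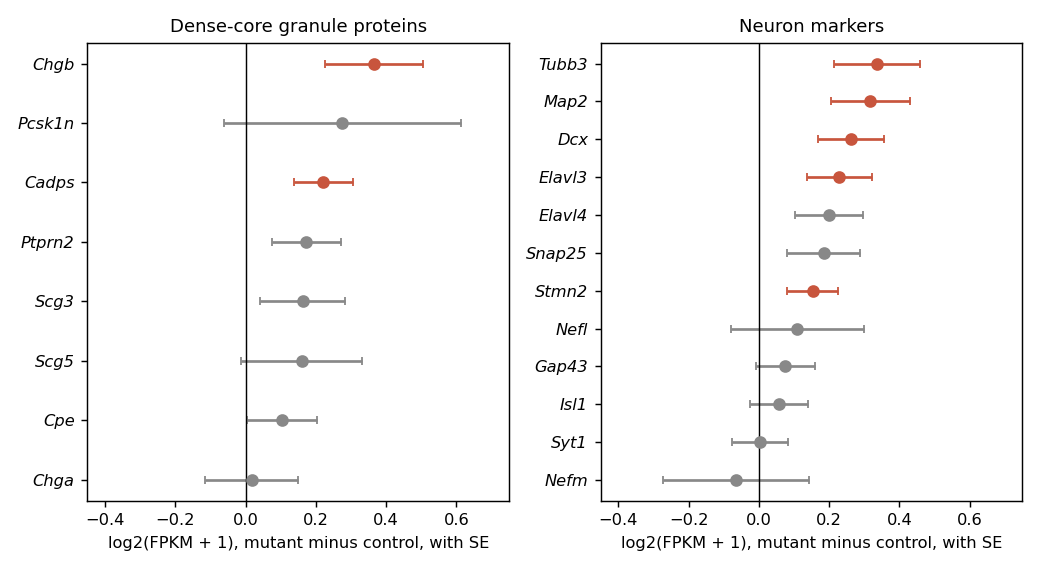
Log2(FPKM + 1) change, mutant minus control, with its SE, for the tested genes of the dense-core granule list (left) and the neuron marker list (right), in red where all mutant values exceed all control values. All 8 tested granule genes lie above 0, with *Chgb* the highest at 0.37, and *Tubb3* leads the markers at 0.34. *Chgb*, *Ptprn2* and *Pcsk1n* passed the filter through the mutants alone.

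The known partners and relatives of the 8 protein-coding genes were taken as 8 lists with 88 genes, of which 67 were tested. No partner gene passed an adjusted p of 0.05 in limma. Of the 67, 2 (2.99%) had an unadjusted p under 0.05, both higher in mutants, against 1.66% of all tested genes in either direction, 0.706% higher and 0.954% lower. With the replicate number as a block the count was 4. In 4 partner genes (5.97%), *Chgb*, *Cadps*, *Fbxw11* and *Tmcc2*, the groups were apart, against 5.0% of all tested genes in either direction, and all 4 were higher in mutants, against 2.63% in that direction. The share in either direction is near that of all tested genes. Of the 4, *Chgb* passed the FPKM filter through the mutants alone. The median log2 change of the 67 was 0.012.

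Both partner genes past the unadjusted threshold belong with *Resp18* to the dense-core granules. *Chgb*, a granin that is stored in these granules, was at 3.63, 4.98 and 5.45 FPKM in controls and at 5.61, 6.74 and 6.45 FPKM in mutants, a log2 change of 0.37 (SE 0.14, past the unadjusted threshold, with an adjusted p = 1 in limma). *Cadps*, which primes granules for release, was at 6.15, 5.86 and 5.77 FPKM in controls and at 6.56, 7.60 and 7.09 FPKM in mutants, a log2 change of 0.22 (SE 0.084, past the unadjusted threshold, with an adjusted p = 1 in limma). In both genes every mutant was above every control, but neither kept an unadjusted p under 0.05 with the Y-linked covariate or without mutant replicate 2. The other 6 tested granule genes also had changes above 0 without passing the test, and the median of the 8 was 0.17. *Chgb*, *Ptprn2* and *Pcsk1n* passed the FPKM filter through the mutants alone, where they are the higher, which favours changes above 0. Below the filter, *Pcsk1* (0.541 and 0.467 FPKM) and *Vgf* (1.09 and 1.02 FPKM) had lower means in mutants, and *Scg2*, *Pcsk2* and *Ptprn* had higher ones. *Cpe*, the carboxypeptidase with the highest level on this list, was at 106 ± 10.5 FPKM in controls and 114 ± 7.0 FPKM in mutants, within the spread between samples. *Ptprn*, whose product resembles Resp18, was too low to be tested, at 2.74 ± 0.459 and 2.86 ± 0.344 FPKM.

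Among the nucleosome assembly genes 7 of 8 tested had changes above 0, with none past the threshold. Of these, *Nap1l5* passed the FPKM filter through the mutants alone, where it is the higher. *Nap1l5*, the relative of *Nap1l2* with the largest change, was at 7.55, 4.54 and 5.53 FPKM in controls and at 8.14, 8.50 and 6.55 FPKM in mutants. The groups overlapped (log2 change 0.36, SE 0.17), and it was past the unadjusted threshold with the replicate block but not in the main fit. *Nap1l3*, X-linked like *Nap1l2*, was below the filter, at 3.30, 3.38 and 2.89 FPKM in controls and at 3.85, 4.34 and 4.49 FPKM in mutants. *Set*, the most abundant gene of the list, was at 463 ± 108 and 486 ± 133 FPKM.

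The calcineurin and NFAT genes beside *Rcan2* did not pass the test in either direction. *Rcan1*, the closest relative in function, was at 24.8 ± 1.23 FPKM in controls and 25.4 ± 1.69 FPKM in mutants, *Rcan3* was at 9.23 ± 0.779 and 8.81 ± 0.768 FPKM, and *Nfatc4*, the most abundant, was at 55.8 ± 2.62 and 53.0 ± 5.21 FPKM. The median log2 change over the 9 tested was -0.060.

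In the SCF list of *Fbxw4* 11 genes were tested. *Fbxw11*, another F-box and WD40 protein, was at 38.7, 37.7 and 38.3 FPKM in controls and at 42.7, 42.1 and 41.6 FPKM in mutants. Its groups were apart (log2 change 0.14, SE 0.066), and it was past the unadjusted threshold with the replicate block but not in the main fit. *Skp1a*, the adaptor that holds F-box proteins in the ligase, was at 252 ± 11.4 and 249 ± 12.2 FPKM.

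For *Tmcc1* the closest relative, *Tmcc2*, was at 22.5, 21.9 and 19.5 FPKM in controls and at 24.3, 22.7 and 22.7 FPKM in mutants, with groups apart and a log2 change of 0.12 (SE 0.083, not past the unadjusted threshold). *Coro1c*, which works with Tmcc1 at endosomes, was at 69.0 ± 3.08 and 72.0 ± 2.97 FPKM. *Rtn3*, the most abundant of that list over all 6 samples although below *Rtn4* in controls, was at 128 ± 29.5 and 138 ± 9.12 FPKM.

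The relatives of *Fsd1l* and *Prr3* and the lysophosphatidic acid genes beside *Acp6* had no gene past the unadjusted threshold and none with groups apart. *Fsd1* was at 14.6 ± 0.659 FPKM in controls and 15.4 ± 0.337 FPKM in mutants, a log2 change of 0.068 against 0.66 in *Fsd1l*. *Zc3h15*, the most abundant CCCH gene, was at 81.3 ± 13.7 and 86.4 ± 18.7 FPKM. *Ppap2b*, a lipid phosphatase of the cell surface that acts on lysophosphatidic acid as well, was at 50.2 ± 1.05 and 49.2 ± 3.86 FPKM. *Enpp2*, which makes lysophosphatidic acid, was at 15.1 ± 2.25 and 15.3 ± 0.236 FPKM.

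The nearest tested gene on each side of the 9, and the tested genes that overlap them, were 20 genes. In limma 2 of the 20 had an unadjusted p under 0.05, against 1.66% of all tested genes, and none an adjusted one. In 5 of the 20 the groups were apart, against 5.0% of all tested genes in either direction, and all 5 were lower in mutants, against 2.37% in that direction. Those 5 were *Slc44a1* beside *Fsd1l*, *Gja5* and *Bcl9* on either side of *Acp6*, *Dnpep* beside *Resp18* and *Xist* beside *Nap1l2*. *Acp6* was thus the gene whose neighbours on both sides were also lower in every mutant. *Gja5*, a gap junction gene 81361 bases away, was at 6.02, 8.07 and 6.65 FPKM in controls and at 5.46, 5.61 and 5.60 FPKM in mutants, a log2 change of -0.26 (SE 0.11, past the unadjusted threshold, with an adjusted p = 1 in limma). *Bcl9*, a cofactor of β-catenin 26363 bases away on the other side, was at 33.8, 35.5 and 32.8 FPKM in controls and at 31.2, 30.5 and 32.1 FPKM in mutants, a log2 change of -0.12 (SE 0.070, not past the unadjusted threshold).

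None of the tested genes beside those that were higher in mutants had groups apart in the same direction. *Slc44a1* beside *Fsd1l* had a log2 change of -0.11 (SE 0.077). *Poll* and *Npm3* beside *Fbxw4* had changes of 0.052 (SE 0.084) and 0.051 (SE 0.12). *Plxnd1* and *Fam21* beside *Tmcc1* had changes of -0.020 (SE 0.084) and 0.0056 (SE 0.17), while *Tmcc1* itself changed by 0.41. *Abcf1* and *H2-T22* beside *Prr3* had changes of 0.085 (SE 0.16) and -0.064 (SE 0.23), and *Cyp39a1* and *Enpp5* beside *Rcan2* of 0.21 (SE 0.11) and -0.0084 (SE 0.087). *Dnajb2* and *Dnpep* beside *Resp18* had changes of 0.13 (SE 0.12) and -0.12 (SE 0.076). *Zfp706* and *Ncald* beside *Gm16136* had changes of 0.034 (SE 0.15) and 0.065 (SE 0.086). *Hdac8*, on the other side of *Nap1l2* from *Xist*, had a change of 0.0053 (SE 0.14).

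*Xist*, the RNA of the inactive X chromosome, is the nearest tested gene on the higher side of *Nap1l2*, 273726 bases away. It was at 98.8, 116 and 73.7 FPKM in controls and at 0.383, 0.330 and 52.7 FPKM in mutants, lowest in the mutants that expressed Y-linked genes. Beside these, *Nap1l2* was at 6.31, 5.73 and 6.86 FPKM in the controls, in the reverse order of *Xist*, and at 8.24, 8.45 and 9.42 FPKM in the mutants, where the sample with the most *Xist* also had the most *Nap1l2*. The part of sex in the difference of *Nap1l2* was not tested, since the Y-linked covariate sets mainly mutant replicate 3 against the controls.

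**Figure D4:**
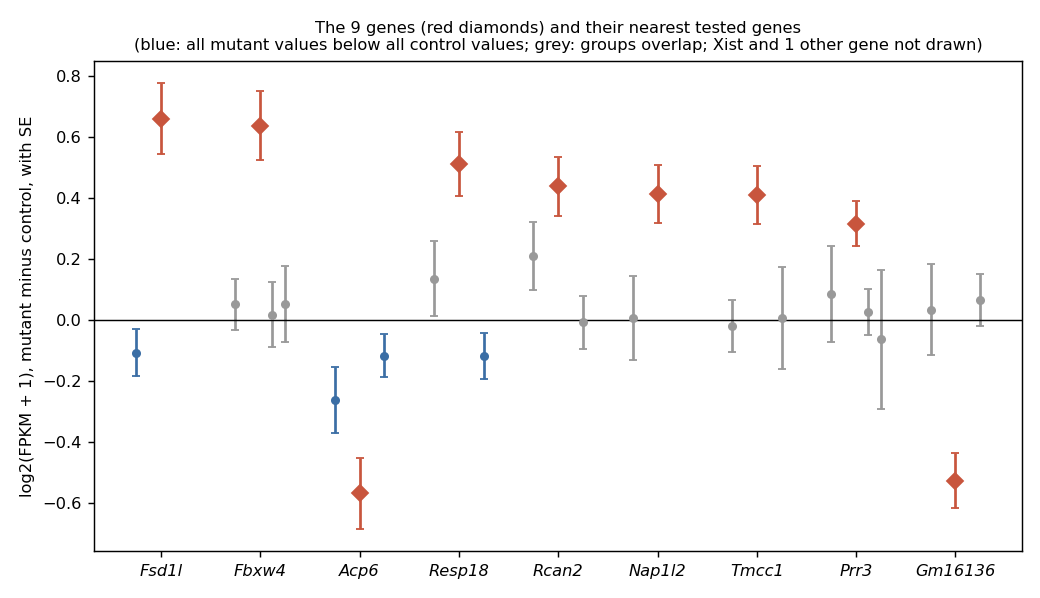
Log2(FPKM + 1) change, mutant minus control, with its SE, for the 9 genes (red diamonds) and their nearest or overlapping tested genes (circles, blue where all mutant values are below all control values, with *Xist* and 1 other gene not drawn). *Acp6* at -0.57 stands between *Gja5* at -0.26 and *Bcl9* at -0.12, and each gene that is higher in mutants stands above the neighbours drawn.

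*Resp18* lies on the same chromosome as the Cre. *Pax3*, which carries it, is at chr1:78101267-78197134, 2.82 megabases from *Resp18*. *Pax3* was at 8.83, 11.9 and 11.1 FPKM in controls and at 8.62, 7.59 and 8.36 FPKM in mutants, with groups apart and a log2 change of -0.33 (SE 0.12, past the unadjusted threshold, with an adjusted p = 1 in limma). The surrounding genes were examined after the position of *Resp18* had been seen. Leaving out *Resp18*, which was chosen for its groups, and *Pax3*, 4 of 41 tested genes within 5 megabases of *Pax3* (9.76%) had groups apart, against 5.0% of all tested genes, and 4 of 67 (5.97%) within 10 megabases. The mutants were higher in *Stk36* and *Wdfy1* and lower in *Wnt6* and *Dnpep*. The Cre-bearing copy of this region and the loss of *Rbfox2* occur, by the labels, in the same 3 samples, so their effects on *Resp18* cannot be told apart. The same holds for all 9 genes and every comparison here: effects of the Cre or of its knock-in into *Pax3* cannot be told apart from the loss of *Rbfox2*.

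**Figure D5:**
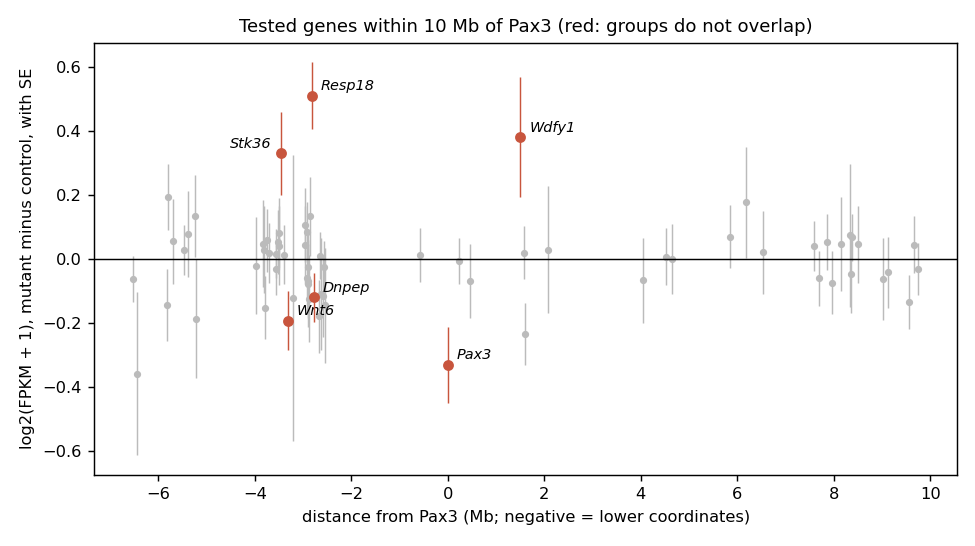
Log2(FPKM + 1) change, mutant minus control, with its SE, of the 69 tested genes within 10 megabases of *Pax3*, by distance from *Pax3* in megabases, in red where the groups do not overlap. *Resp18*, 2.82 megabases away, is the highest at 0.51, and *Pax3* itself is at -0.33.

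Promoter sequences, from 250 bases before to 50 bases after the start of a transcript, were found in RefSeq (GRCm38.p6) for 5 of the 9 genes, in 9 windows. *Tmcc1*, *Fbxw4*, *Nap1l2* and *Gm16136* had no entry. The windows of *Resp18* and *Fsd1l* are shown as a CpG-poor and a CpG-rich promoter of genes that were higher in mutants, and capitals mark CCAAT, read as ATTGG on the other strand, and CAGCTG:
Resp18: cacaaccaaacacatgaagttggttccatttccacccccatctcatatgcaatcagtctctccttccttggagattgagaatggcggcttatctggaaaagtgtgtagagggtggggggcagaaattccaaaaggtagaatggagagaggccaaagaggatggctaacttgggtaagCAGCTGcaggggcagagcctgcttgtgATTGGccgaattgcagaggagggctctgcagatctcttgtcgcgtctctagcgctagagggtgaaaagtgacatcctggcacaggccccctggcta
Fsd1l: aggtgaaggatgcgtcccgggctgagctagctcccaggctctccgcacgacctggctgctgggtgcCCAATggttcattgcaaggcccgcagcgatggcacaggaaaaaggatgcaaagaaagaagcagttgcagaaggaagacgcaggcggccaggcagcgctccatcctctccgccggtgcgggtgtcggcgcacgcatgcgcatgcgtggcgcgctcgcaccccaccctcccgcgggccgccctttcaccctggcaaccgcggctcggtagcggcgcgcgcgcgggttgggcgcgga
The *Resp18* window (chr1:75278366-75278665, minus strand) held 5 CpG at 52.3% GC, and the *Fsd1l* window (chr4:53631174-53631473, plus strand) held 34 CpG at 68.7% GC. The median over 32851 promoter windows was 7 CpG and 52.7% GC. A further window of *Fsd1l* (chr4:53631221-53631520) overlaps the one shown and held 37 CpG. *Acp6* had 19 CpG in its window, the 2 windows of *Prr3* had 26 and 22, and the 3 windows of *Rcan2* had 5, 20 and 7. Searched on both strands, CCAAT was in 5 of the 9 windows and in 37.4% of all windows, and CAGCTG was in 2 of them and in 16.3% of all windows. The overlapping windows of *Fsd1l* hold the same CCAAT, which is counted in each. None of the 9 held TATAAA, which 13.6% of all windows did. The letters TGCATG were also absent from the 9 and present in 11.01% of all windows, and TGACGT was absent from them and present in 7.51%.

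Annotated transcripts that are targets of nonsense-mediated decay were present in 3 of the 9 genes, *Fsd1l*, *Resp18* and *Tmcc1*, and in 29.6% of the tested genes with an annotation. Transcripts with a retained intron were annotated in 6 of the 9 and in 61.8% of tested genes. The table holds 1 value per gene, so isoforms of these genes were not analysed here.

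The genes whose values were most alike to each of the 9 over the 6 samples were ranked by Pearson's r of log2(FPKM + 1), as a description. The 2 closest genes had r between 0.977 and 0.996, and each of the 9 had 9 to 19 genes with r over 0.95. *Gm16136* was most like *Rbfox2* itself (r = 0.992), which lies 39.8 megabases away on chromosome 15, and then *Fkbp14* (r = 0.980), which was also the second closest to *Acp6* after *Gatm* (r = 0.991). *Nap1l2* was closest to *Uba7* (r = 0.986) and *Resp18* (r = 0.981), the only pair of the 9 in which one was among the 2 closest of the other. *Fsd1l* was closest to *Rnf182* and *Spg11*, *Fbxw4* to *Dpysl2* and *Calm3*, *Resp18* to *Ttll12* and *Exoc2*, *Rcan2* to *Olfm2* and *Sgip1*, *Tmcc1* to *Tkt* and *Cdc42ep4*, and *Prr3* to *Mzt2* and *Fbxw11*. The points share libraries and group means, and a high r between genes that differ between the groups follows in part from that difference.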

How the data were processed

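The authors sequenced stranded poly(A)+ libraries of 3 control and 3 mutant samples, and the labels name FastQC 0.11.4, STAR, Cuffdiff and GRCm38. Versions of STAR and Cuffdiff, the annotation and the step that made the gene table are not given in the sources used here. The authors deposited FPKM values for 38553 genes, in single-sample tables and a joint table that held the same values. FPKM keeps no read counts, so no interval for counting error is given. The study's methods say that littermates were analysed in general, but no source used here assigns these samples to litters, and p-values measure the spread between these samples.

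Genes with an FPKM over 5 in all samples of either group were kept. Values were taken to log2(FPKM + 1), which understates changes of low genes, and groups were compared in limma 3.58.1 (R 4.3.3) fitting the intensity trend, without covariates and with Benjamini-Hochberg adjustment over the 10061 genes. The script was tested on simulated data. The members and lists were chosen with earlier results of these data known. Named besides the 9 genes are *Rbfox2*, in each partner list the genes with an unadjusted p under 0.05 and the most abundant one, the nearest and overlapping tested genes (1 of which is not reported here), and the 2 genes most alike over the samples. Other relatives, *Pax3* and its neighbours were named after their values were seen. Marker lists covered cranial mesenchyme, cartilage and bone, neural crest glia, neurons, macrophages, endothelium, epithelium, skeletal muscle, erythroid cells, choroid plexus and forebrain progenitors.

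The replicate numbers come from the sample titles. Deviations from the group means correlated between control and mutant of the same number at 0.64, 0.26 and 0.51 for replicates 1, 2 and 3. Mutant replicate 2 correlated more with control replicate 3, at 0.40. These values set replicate 1 apart and do not settle how replicates 2 and 3 pair. The replicate block and the differences by replicate number thus follow the titles alone, and the labels name no shared litter or batch. Coordinates are from GENCODE release 21 (GRCm38), which held 95.25% of the identifiers. Sequences were read with Python 3 scripts from GENCODE transcripts and RefSeq promoters.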

Additional observations from a re-analysis of the deposited data

How the results depend on the processing

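With other settings, with each sample left out and with the neuron marker scaling, which was added after the data were seen, 117 values of the 9 genes were computed and none changed sign. The choice of genes with groups apart fixed the sign with a sample left out, with replicates 2 and 3 only and with the other pseudocount. The replicate block gives the same log2 change as the main fit by its design. Of the 117 values, 101 moved by less than 1 SD between replicates, those of the replicate block among them. The other 16 were the 9 under the neuron marker scaling, *Fsd1l* with replicates 2 and 3 only (0.82), *Gm16136* with a pseudocount of 0.1, the Y-linked covariate, or replicates 2 and 3 only (-0.62 each), and *Nap1l2* (0.52), *Prr3* (0.24) and *Resp18* (0.69) with the Y-linked covariate. Leaving out each sample in turn, the log2 change of *Fsd1l* ran from 0.60 to 0.77 and that of *Prr3* from 0.28 to 0.36. Only mutant replicates 1 and 2 expressed Y-linked genes. All values and counts with the Y-linked covariate therefore rest mainly on mutant replicate 3 against the controls, and do not measure the part of sex.

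The counts over all genes depended more on the settings. The count past an adjusted p of 0.05 was 0, 4 with replicates 2 and 3 only, and 0 to 1 with a sample left out. The count past an unadjusted p of 0.05 was 167, 304 with an FPKM filter of 1, 663 without a filter, 1103 with replicates 2 and 3 only, and 78 (without control replicate 2) to 649 (without control replicate 1), with 413 without mutant replicate 1 and 108 without mutant replicate 2. The count with groups apart was 503, 799 with a filter of 1, 1462 without one and 4525 with replicates 2 and 3 only. It was 2454 without control replicate 1, 2447 without mutant replicate 1 and 846 to 1020 with any other sample left out. Groups of fewer samples overlap less often, but the number of samples was the same in each of these leave-out counts. The Y-linked covariate changed the split of the 167 from 71 higher and 96 lower to 50 and 126 among 176.

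The replicate block raised the count past an unadjusted p of 0.05 from 167 to 604 and that of partner genes from 2 to 4, with *Fbxw11* and *Nap1l5* added, and changed neither the adjusted count nor the call of *Rbfox2*. The count of partner genes was 1 with quantile normalization, 0 with the Y-linked covariate, 14 with replicates 2 and 3 only, and 0 (without mutant replicate 2) to 7 (without mutant replicate 1), with 6 without control replicate 1 and 1 without control replicate 2, control replicate 3 or mutant replicate 3. *Rbfox2* had a log2 change of -0.82 and an adjusted limma p of 0.033 with replicates 2 and 3 only, and -0.79 to -0.71 with a sample left out, where no adjusted p was under 0.05. The cause of these shifts was not tested.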
